A study of Mus musculus with 12 samples.

Results

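The inducible chemokines are small secreted proteins of the Ccl and Cxcl families, and their transcripts were followed across 3 genotypes of irradiated mouse bone marrow stroma. They were taken as every probe set with a single platform gene symbol that starts with Ccl or Cxcl followed by digits, apart from Cxcl12, the chemokine that stroma makes in the steady state. The rule gave 17 probe sets of 13 genes, out of 3109 probe sets tested and 1974 genes with a single symbol. Assembly GRCm38.p6 lists 36 protein-coding genes of this name pattern, and those outside the 13 were not analysed here. Every probe set in the table varied across the arrays, with an interquartile range of at least 0.5001 log2 units, and reached the log2 of 100 on at least 3 arrays. Ccl8, Cxcl10 and Cxcl13 1448859_at reached it on 0 of the WT arrays and so were in the table through heterozygous arrays. Ccl4 and Ccl12 reached it on 1 WT array and Cxcl13 1417851_at on 2, so they too needed heterozygous arrays to reach 3. Counts and medians over the 17 probe sets therefore describe the measured chemokines and carry no support for a difference between genotypes.

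The 12 arrays were 4 from Crebbp+/- mice, 4 from Ep300+/- mice and 4 from WT mice, each named as a separate biological replicate in the labels. All mice were C57BL/6 and 3 to 4 months old. Their marrow had been plated for 2 weeks in M5300 medium, and the adherent layer had then received 1500 cGy of irradiation and fresh medium, in all 3 genotypes alike, so no unirradiated stroma was compared. Such a layer is a mixed culture of reticular cells, macrophages and endothelial cells, and the heterozygous deletion was present in all of them. Crebbp and Ep300 encode related histone acetyltransferases that act as transcriptional coactivators.

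Chemokines bind receptors on white blood cells and draw them along a gradient. Cxcl1 and Cxcl2 act on neutrophils through Cxcr2, the Ccl2 group and the Ccl3 group act mostly on monocytes and macrophages through Ccr2 and other receptors, and Cxcl10, Cxcl13 and Cxcl16 act mostly on lymphocytes through Cxcr3, Cxcr5 and Cxcr6. Most are transcribed at low levels until a signal such as tumour necrosis factor, interleukin 1, a microbial product or an interferon activates NF-kB or interferon regulatory factors, which can recruit CBP and p300, the proteins of Crebbp and Ep300. In marrow they take part in the release of neutrophils and monocytes to the blood.

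The 250 bases before the annotated start were available from RefSeq (GRCm38.p6) for 9 of the 13 genes. They are shown for Cxcl1, Cxcl2 and Cxcl10, whose transcripts were highest on replicate 3 in all 3 genotypes, and for Ccl8, the chemokine that passed the test. Capitals mark matches to the NF-kB consensus on either strand and, in Cxcl10, also the first match, to GAAANNGAAA, a core of the interferon-stimulated response element.
Cxcl1, chr5:90890995-90891244, plus strand: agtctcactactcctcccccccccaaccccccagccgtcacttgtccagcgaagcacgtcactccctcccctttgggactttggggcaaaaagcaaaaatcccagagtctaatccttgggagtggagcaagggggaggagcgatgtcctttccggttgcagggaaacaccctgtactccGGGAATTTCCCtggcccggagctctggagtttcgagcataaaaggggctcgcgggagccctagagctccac
Cxcl2, chr5:90903649-90903898, plus strand: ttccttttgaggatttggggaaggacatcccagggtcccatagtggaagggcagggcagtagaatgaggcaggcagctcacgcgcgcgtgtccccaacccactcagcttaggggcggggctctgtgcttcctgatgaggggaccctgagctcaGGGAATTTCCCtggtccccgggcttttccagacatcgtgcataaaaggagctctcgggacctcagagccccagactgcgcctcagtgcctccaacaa
Cxcl10, chr5:92348890-92349139, minus strand: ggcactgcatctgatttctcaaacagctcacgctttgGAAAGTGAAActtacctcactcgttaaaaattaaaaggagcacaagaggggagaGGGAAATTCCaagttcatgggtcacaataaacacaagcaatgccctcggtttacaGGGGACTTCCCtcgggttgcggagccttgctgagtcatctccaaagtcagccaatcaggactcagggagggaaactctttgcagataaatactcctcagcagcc
Ccl8, chr11:82114935-82115184, plus strand: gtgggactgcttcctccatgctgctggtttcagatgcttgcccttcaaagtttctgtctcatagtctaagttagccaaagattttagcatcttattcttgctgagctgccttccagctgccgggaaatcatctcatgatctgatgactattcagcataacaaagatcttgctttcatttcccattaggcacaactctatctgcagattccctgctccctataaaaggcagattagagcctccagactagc
The NF-kB consensus matched in 3 of the 9 windows, those of Cxcl1, Cxcl2 and Cxcl10, and in 7.25% of 32851 RefSeq windows of the same length. The window of Ccl3, which was also highest on Ep300+/- 3 and Crebbp+/- 3, held 0 matches to it and is not shown. In Cxcl1 the matches began 71 and 70 bases before the start, and in Cxcl2 97 and 96 bases before it, each pair overlapping as the same site read on both strands. Cxcl10 held a match 159 bases before its start and an overlapping pair at 104 and 103. GAAANNGAAA, searched on both strands, matched in Cxcl10 and Cxcl14, 2 of the 9 windows and 2.98% of all windows. TGACGTCA, the cyclic AMP response element bound by CREB, matched in 0 of the 9 and in 1.55% of all windows. These are letter matches in short windows and say nothing of binding.

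Crebbp itself averaged 7.74 ± 0.091 in Crebbp+/- stroma, 8.65 ± 0.12 in Ep300+/- stroma and 8.52 ± 0.058 in WT stroma (log2 level, SD, n = 4 each), lowest in the Crebbp+/- arrays, while no Ep300 probe set was analysed here. Array medians over all probe sets lay between 7.98 and 8.43. Levels are log2 GCRMA values, which are relative and were compared between arrays, never between probe sets. Arrays Crebbp+/- 3 and Ep300+/- 3 stood apart in the chemokines: averaged over the 17 probe sets after centring each, they lay at 1.74 and 2.16 log2 units, and the other 10 arrays between -1.46 and 0.82. Chemokine differences from WT and list medians that changed by over 1.5 times or turned in sign without both arrays are given both ways, below or in the closing section, a choice made after the values were seen. As both arrays had the highest chemokine averages, leaving them out had to lower the average chemokine difference of each heterozygote from WT. Eif2s3y, a gene of the Y chromosome, had a level of 2.73 on Crebbp+/- 1 and of 2.69 on Crebbp+/- 3, against 8.41 to 10.84 elsewhere, so the Crebbp+/- group differed from the others in this marker. Of the culture's cell types, 3 of 12 macrophage markers were measured (Cd163, Cd14 and Fcgr1), 12 of 14 endothelial and 9 of 12 reticular ones, and 0 of the granulocyte, lymphoid or erythroid markers were in the table. Bulk RNA cannot tell more cells of a type from more RNA per cell, and this holds for each difference below.

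The first comparison asked how Crebbp+/- stroma differed from WT stroma. All 17 chemokine probe sets had a positive log2 difference, which 62.4% of all probe sets tested had, and their median was 1.50, beside 0.24 for all probe sets. Median centring moved these to 1.31 and 0.044, and quantile normalization to 1.16 and 0.022. In limma's test, adjusted over all probe sets, 1 of the 17, Ccl8, rose and 0 fell, where 6.18% of all probe sets passed, 5.02% rising and 1.16% falling. At an unadjusted p under 0.05 5 of the 17 passed, against 26.7% of all probe sets. The 4 Crebbp+/- arrays all lay above the 4 WT arrays for 4 probe sets, those of Ccl8, Ccl7, Cxcl10 and Cxcl13 1448859_at, against 10.4% of all probe sets, and 0 of the 17 separated the other way, against 8.46%. The median difference was 0.67 without Crebbp+/- 3 and Ep300+/- 3, and 0.50 with the Eif2s3y level as a covariate, under which Ccl8 lost its call and 0 of all 3109 probe sets were called. The share of all probe sets that passed also rested on single arrays: beside 192 calls over 12 arrays, 5 were made without WT 4, 7 without Crebbp+/- 2, 9 without Crebbp+/- 1, 30 without WT 2, 48 without WT 3 and 55 without Crebbp+/- 3, and 383 without Crebbp+/- 4. When the replicate number entered as a block, which pairs these arrays, 3 of the 17 probe sets passed, both Cxcl13 probe sets and Ccl8, where 26.1% of all probe sets did.

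**Figure D1:**
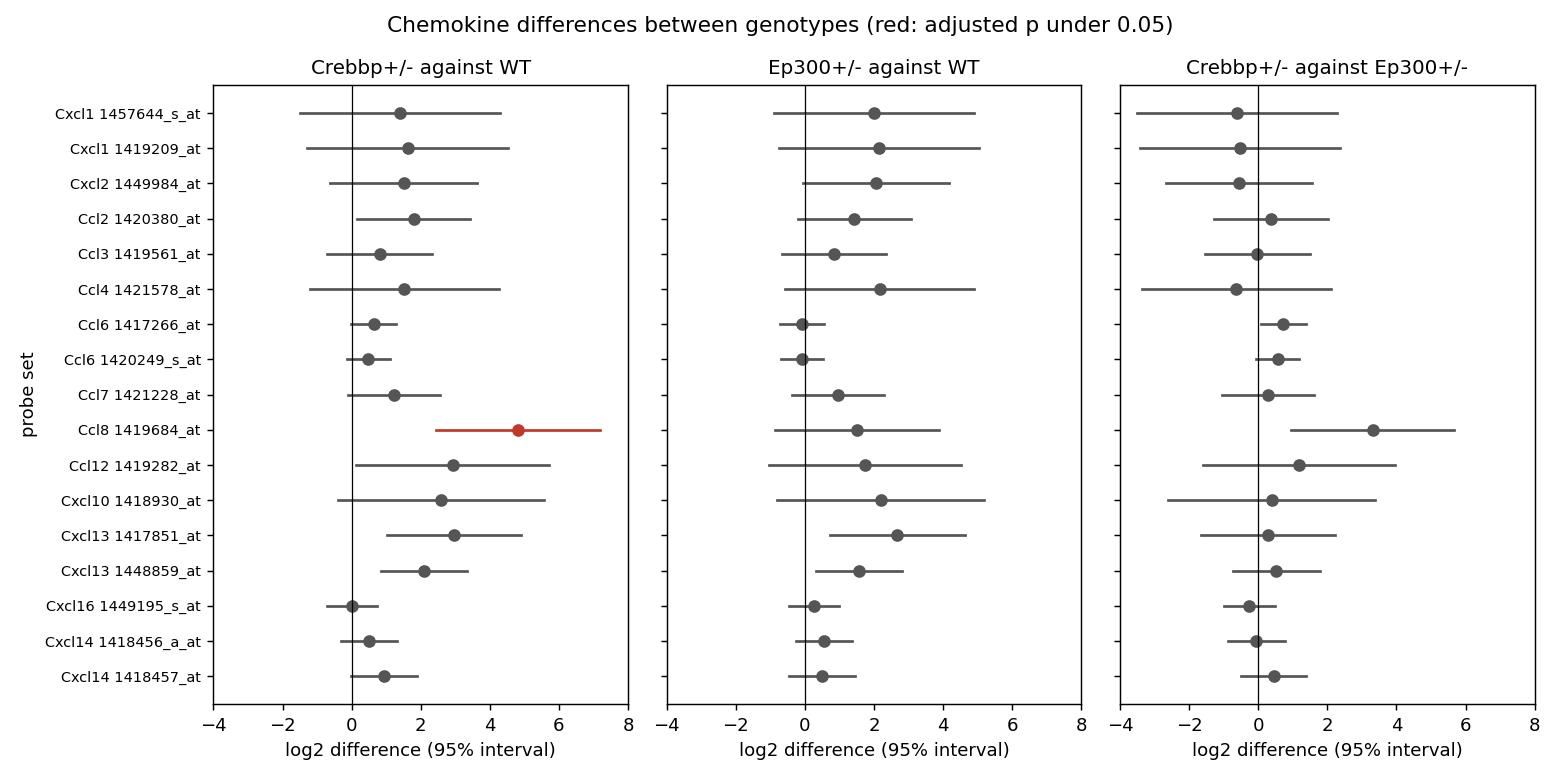
Log2 difference and its 95% interval from limma (horizontal axis, log2 units) for each of the 17 chemokine probe sets (rows) in Crebbp+/- against WT, Ep300+/- against WT and Crebbp+/- against Ep300+/-. Red marks an adjusted p under 0.05 and is held by Ccl8 alone, at 4.81 in Crebbp+/- against WT, while most other intervals include 0.

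The second comparison set Ep300+/- stroma against the same 4 WT arrays, so it is not independent of the first. The median difference of the 17 probe sets was 1.50 here too, beside 0.049 for all probe sets, and 15 of the 17 were positive, as were 54.8% of all probe sets. By limma's adjusted test 0 of the 17 passed, where 0% of all probe sets did, and at an unadjusted p under 0.05 2 of the 17 did, both of Cxcl13, where 4.05% of all probe sets did. For 0 of the 17 did the Ep300+/- and WT arrays separate completely with the heterozygotes higher, which 1.99% of all probe sets did, nor with them lower, which 2.16% did. Without Crebbp+/- 3 and Ep300+/- 3 the median was 0.73.

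The third comparison set the heterozygotes against each other. The median difference, Crebbp+/- minus Ep300+/-, was 0.29, beside 0.025 for all probe sets, and 10 of the 17 were positive, as were 51.4% of all probe sets. That median turned in sign between settings and was 0.61 without Crebbp+/- 3 and Ep300+/- 3, -0.16 without Ep300+/- 4 and -0.33 with the Eif2s3y level as a covariate. By limma's adjusted test 0 of the 17 passed, where 6.40% of all probe sets did, 4.89% higher in Crebbp+/- and 1.51% lower. Beside these 199 calls, 2 were made without Ep300+/- 1, 9 without Crebbp+/- 1, 38 without Crebbp+/- 2 and 59 without Ep300+/- 4. The 2 groups separated completely for 0 of the 17, against 9.13% of all probe sets with Crebbp+/- higher and 4.34% with Crebbp+/- lower. At an unadjusted p under 0.05 2 of the 17 did, Ccl8 and Ccl6 1417266_at, where 25.2% of all probe sets did. With that block both passed, 2 of the 17, where 24.4% of all probe sets did, with limma adjusted p of 0.027 for Ccl8 and 0.0371 for Ccl6 1417266_at.

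**Figure D2:**
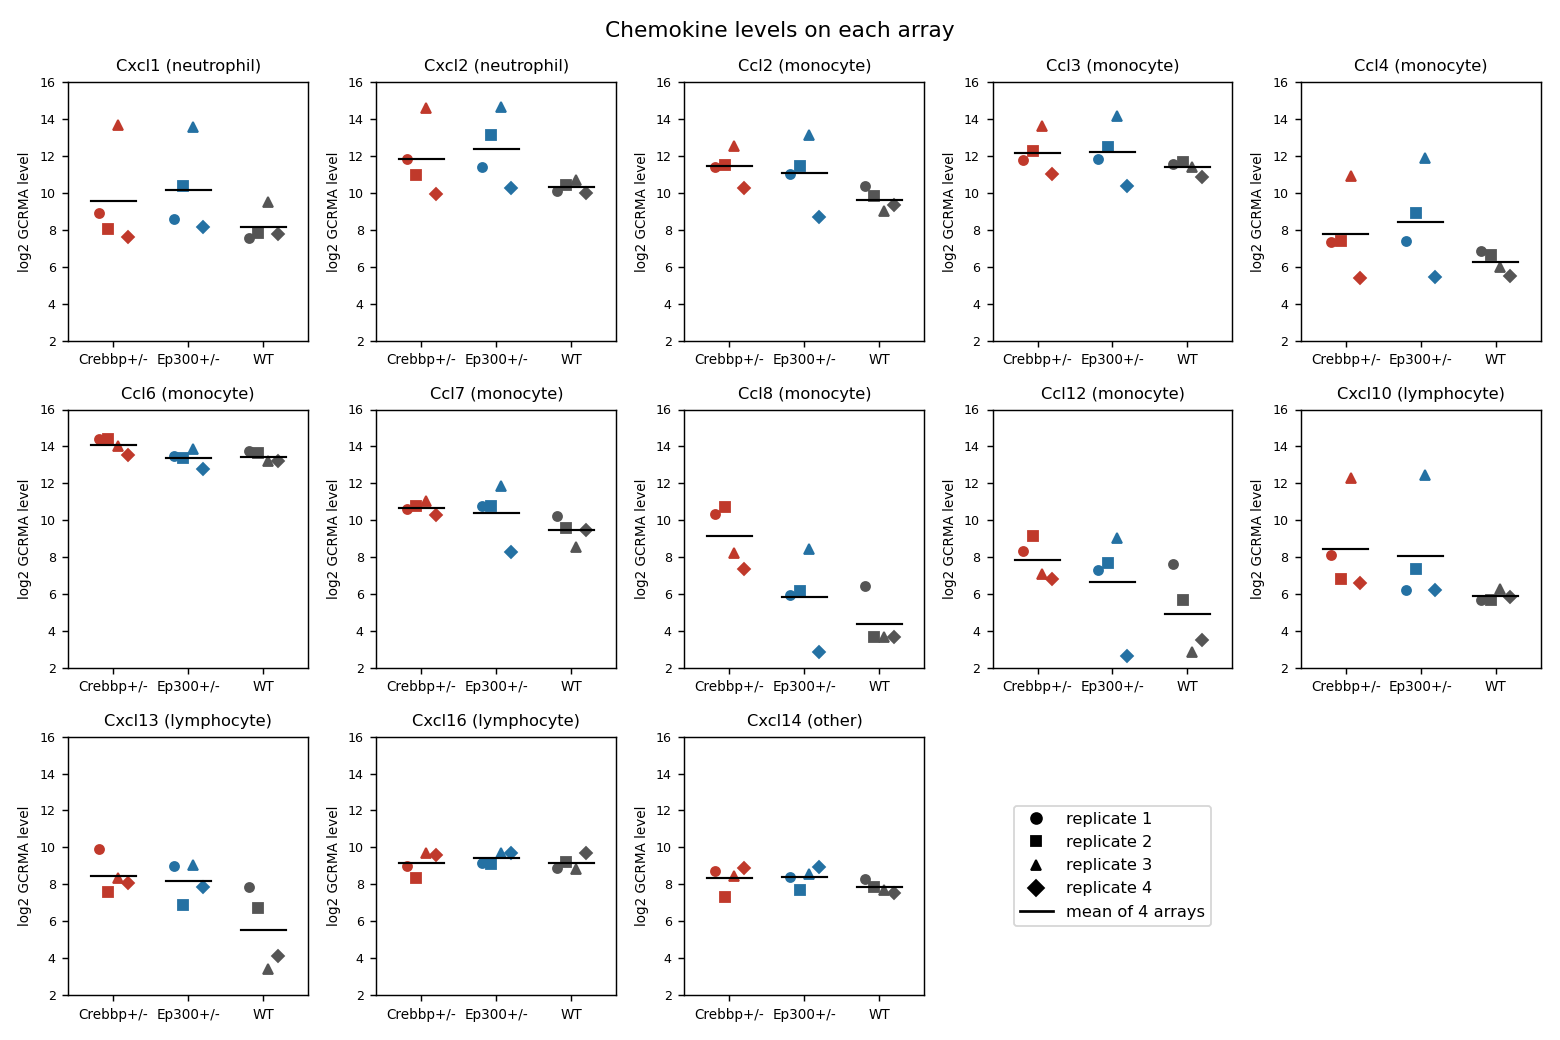
Log2 GCRMA level (vertical axis) on each of the 12 arrays for the 13 chemokine genes, each by its probe set of highest mean, in Crebbp+/-, Ep300+/- and WT stroma. Symbols mark the replicate number and bars the mean of 4 arrays. Ccl8 lies higher on all 4 Crebbp+/- arrays than on any WT array, and the triangles of Crebbp+/- 3 and Ep300+/- 3 stand above the rest for Cxcl1, Cxcl2, Ccl4 and Cxcl10.

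Among the monocyte attractants, 8 probe sets of 7 genes, Ccl8 was the gene that passed the test. The medians of the 8 differences were 1.38 in Crebbp+/- against WT, 1.19 in Ep300+/- against WT and 0.47 between the heterozygotes, and 0.89, 0.56 and 0.74 without Crebbp+/- 3 and Ep300+/- 3. Ccl8 encodes MCP-2, a relative of Ccl2 that in mice binds Ccr8. Its log2 levels, in the order of replicates 1 to 4, were 10.35, 10.70, 8.24 and 7.35 in Crebbp+/- stroma, 5.95, 6.18, 8.43 and 2.84 in Ep300+/- stroma, and 6.42, 3.66, 3.66 and 3.68 in WT stroma. The Crebbp+/- arrays all stood above the WT arrays, the Ep300+/- arrays overlapped both other groups, and WT 1 stood apart from the other WT arrays. The means were 9.16 ± 1.62 in Crebbp+/-, 5.85 ± 2.30 in Ep300+/- and 4.35 ± 1.38 in WT stroma (SD, n = 4 each).

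Ccl8 rose by 4.81 log2 units in Crebbp+/- against WT stroma (SE 1.09, 95% interval 2.44 to 7.17, limma adjusted p = 0.0261), and by an exact two-sided permutation test p was 0.0286, the smallest that 4 against 4 arrays allow. Of the WT values, 3 lay under 4, as did 0.426% of all values in the table, so the size of the difference depends on how GCRMA treats near-background signal. Ccl8 reached the log2 of 100 on 4 Crebbp+/-, 1 Ep300+/- and 0 WT arrays, so it entered the table through the group in which it was high, and its place among the 17 is no support for the difference. The Ccl8 call ended when any 1 of WT 2, WT 3, WT 4, Crebbp+/- 1, Crebbp+/- 2 or Crebbp+/- 3 was left out, with limma adjusted p of 0.0809, 0.0699, 0.0871, 0.102, 0.0875 and 0.0504 in that order, while the difference stayed between 4.29 and 5.50. It also ended with the Eif2s3y level as a covariate, where the difference was 4.93 and the limma adjusted p 0.267. Between Crebbp+/- and Ep300+/- stroma Ccl8 differed by 3.31 (95% interval 0.94 to 5.68, limma adjusted p = 0.0856), and between Ep300+/- and WT stroma by 1.50 with an interval of -0.87 to 3.87, and by 0.64 without Ep300+/- 3 and 2.50 without Ep300+/- 4. Within same-numbered arrays, Crebbp+/- exceeded Ep300+/- by 4.40, 4.52 and 4.51 for numbers 1, 2 and 4, and by -0.19 for number 3.

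Ccl2, Ccl7 and Ccl12 encode Ccr2 ligands and lie in the same cluster on chromosome 11 as Ccl8. There Ccl2 and Ccl7 are neighbours, Ccl12 and Ccl8 are neighbours, and 1 protein-coding gene lies between Ccl7 and Ccl12. Ccl2, a major monocyte attractant of marrow stroma, had levels of 11.41, 11.53, 12.53 and 10.29 in Crebbp+/-, 11.01, 11.45, 13.15 and 8.69 in Ep300+/-, and 10.38, 9.84, 9.02 and 9.34 in WT stroma. Of the Crebbp+/- arrays 3 stood above all WT arrays, and the Ep300+/- arrays spread from below the lowest WT array to the highest value of all. The difference was 1.79 in Crebbp+/- against WT (SE 0.76, limma adjusted p = 0.155) and 1.43 in Ep300+/- against WT (95% interval -0.22 to 3.07), and without Crebbp+/- 3 and Ep300+/- 3 it was 1.43 and 0.74.

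Ccl12, a Ccr2 ligand found in mice, had levels of 8.34, 9.16, 7.07 and 6.81 in Crebbp+/-, 7.28, 7.70, 9.04 and 2.63 in Ep300+/-, and 7.62, 5.70, 2.85 and 3.52 in WT stroma. Both Ep300+/- 4 and WT 3 lay near the bottom of the scale, and the groups overlapped. The difference was 2.92 in Crebbp+/- against WT (SE 1.29, limma adjusted p = 0.169) and 1.74 in Ep300+/- against WT, and without Crebbp+/- 3 and Ep300+/- 3 it was 3.18 and 0.95. Ccl7 had levels of 10.63, 10.78, 11.03 and 10.29 in Crebbp+/-, 10.75, 10.77, 11.83 and 8.27 in Ep300+/-, and 10.25, 9.59, 8.53 and 9.46 in WT stroma. The Crebbp+/- arrays all stood just above the WT arrays, as they did for 10.4% of all probe sets. The exact permutation p of 0.0286, the smallest for 4 against 4 arrays, restates this separation. The difference was 1.23 and did not pass limma's test (adjusted p = 0.215). In Ep300+/- against WT it was 0.95, and 0.48 without Crebbp+/- 3 and Ep300+/- 3. Ep300+/- 4 was the lowest of the 12 arrays for Ccl2, Ccl7, Ccl8 and Ccl12, and for all 4 genes Ep300+/- 3 was the highest Ep300+/- array.

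Ccl3 and Ccl4, made by activated macrophages, lie next to each other and to Ccl6 on chromosome 11. Ccl3 had levels of 11.80, 12.28, 13.64 and 11.04 in Crebbp+/-, 11.85, 12.47, 14.17 and 10.36 in Ep300+/-, and 11.58, 11.68, 11.41 and 10.87 in WT stroma. Ccl4 had levels of 7.36, 7.40, 10.94 and 5.37 in Crebbp+/-, 7.40, 8.92, 11.88 and 5.43 in Ep300+/-, and 6.86, 6.62, 5.98 and 5.50 in WT stroma. For both genes Crebbp+/- 3 and Ep300+/- 3 were the highest arrays, replicate 4 was the lowest in each genotype, and the groups overlapped. Ccl4 differed by 1.53 in Crebbp+/- against WT and by 2.17 in Ep300+/- against WT (limma adjusted p = 0.457 and 0.965), and by 0.47 and 1.01 without those arrays. The Ccl3 differences were 0.81 and 0.83, and 0.32 and 0.18 without them.

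Ccl6, a macrophage product of rodents, was given by 2 probe sets. Ccl6 1417266_at had levels of 14.41, 14.41, 14.00 and 13.54 in Crebbp+/-, 13.50, 13.35, 13.83 and 12.77 in Ep300+/-, and 13.72, 13.65, 13.21 and 13.22 in WT stroma. The Crebbp+/- arrays 1 to 3 stood above all other arrays, and Ep300+/- and WT arrays were mixed. The difference was 0.64 in Crebbp+/- against WT (limma adjusted p = 0.189), -0.086 in Ep300+/- against WT, and 0.73 between the heterozygotes (95% interval 0.082 to 1.37, limma adjusted p = 0.152). Ccl6 1420249_s_at had differences of 0.48, -0.082 and 0.56 in the same comparisons. Without Crebbp+/- 3 and Ep300+/- 3 the differences in Ep300+/- against WT were -0.24 and -0.27.

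The lymphocyte attractants were 4 probe sets of 3 genes, and Cxcl13 came nearest to the threshold. Their median differences were 2.34 in Crebbp+/- against WT, 1.88 in Ep300+/- against WT and 0.34 between the heterozygotes, and 1.75, 1.01 and 0.60 without Crebbp+/- 3 and Ep300+/- 3. Cxcl13 draws B cells into follicles through Cxcr5. Cxcl13 1417851_at had levels of 9.89, 7.59, 8.34 and 8.07 in Crebbp+/-, 9.01, 6.86, 9.02 and 7.86 in Ep300+/-, and 7.86, 6.70, 3.39 and 4.11 in WT stroma. Cxcl13 1448859_at had levels of 8.18, 6.74, 6.78 and 6.68 in Crebbp+/-, 7.35, 5.39, 7.39 and 6.15 in Ep300+/-, and 6.23, 5.44, 4.34 and 4.01 in WT stroma. Both probe sets were lowest on WT 3 and WT 4, both heterozygotes lay mostly above WT, and the Crebbp+/- arrays separated completely from WT on the second probe set only.

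The Cxcl13 differences in Crebbp+/- against WT were 2.96 for 1417851_at (SE 0.90, limma adjusted p = 0.0705) and 2.09 for 1448859_at (SE 0.58, limma adjusted p = 0.0509). With the block the limma adjusted p were 0.0222 and 0.0112, and Crebbp+/- exceeded WT in 4 of 4 same-numbered pairs on both. In Ep300+/- against WT the Cxcl13 differences were 2.67 (95% interval 0.73 to 4.62, limma adjusted p = 0.841) and 1.56 (limma adjusted p = 0.945). Between the heterozygotes they were 0.29 (95% interval -1.66 to 2.23) and 0.52 (-0.73 to 1.78). Without Crebbp+/- 3 and Ep300+/- 3 they were 3.00 and 2.19 in Crebbp+/- against WT and 2.39 and 1.29 in Ep300+/- against WT.

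Cxcl10, an interferon-inducible attractant of activated T cells, had levels of 8.12, 6.81, 12.27 and 6.60 in Crebbp+/-, 6.21, 7.36, 12.44 and 6.21 in Ep300+/-, and 5.66, 5.69, 6.25 and 5.85 in WT stroma. The 4 WT arrays lay close together, and Ep300+/- 1 and 4 lay just below WT 3. All Crebbp+/- arrays stood above the WT arrays, as they did for 10.4% of all probe sets. The exact permutation p of 0.0286, the smallest for 4 against 4 arrays, restates this separation. Cxcl10 reached the log2 of 100 on 0 WT arrays and was in the table through heterozygous arrays. Its difference of 2.58 in Crebbp+/- against WT did not pass limma's test (adjusted p = 0.246), nor did 2.19 in Ep300+/- against WT. Without Crebbp+/- 3 and Ep300+/- 3 these were 1.31 (limma adjusted p = 0.0811) and 0.73. Cxcl16, a membrane-bound ligand of Cxcr6, had levels of 8.98, 8.34, 9.67 and 9.59 in Crebbp+/-, 9.12, 9.10, 9.68 and 9.71 in Ep300+/-, and 8.85, 9.20, 8.83 and 9.67 in WT stroma. The groups were mixed, and the difference in Crebbp+/- against WT was 0.0048 with a 95% interval of -0.72 to 0.73. In Ep300+/- against WT Cxcl16 differed by 0.26, and by 0.17 without Crebbp+/- 3 and Ep300+/- 3.

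The neutrophil attractants were 3 probe sets of Cxcl1 and Cxcl2, neighbours on chromosome 5 and both ligands of Cxcr2, and 0 of them passed in any comparison. Their median differences were 1.50 in Crebbp+/- against WT, 2.05 in Ep300+/- against WT and -0.55 between the heterozygotes, and 0.30, 0.92 and -0.71 without Crebbp+/- 3 and Ep300+/- 3. Cxcl2 had levels of 11.82, 10.97, 14.58 and 9.93 in Crebbp+/-, 11.43, 13.14, 14.66 and 10.28 in Ep300+/-, and 10.13, 10.45, 10.71 and 10.00 in WT stroma. WT arrays lay close together, while Crebbp+/- 3, Ep300+/- 3 and Ep300+/- 2 stood well above every other array. The means were 11.83 ± 1.99 in Crebbp+/-, 12.38 ± 1.92 in Ep300+/- and 10.32 ± 0.32 in WT stroma (SD, n = 4 each). Cxcl2 differed by 1.50 in Crebbp+/- against WT (limma adjusted p = 0.338), by 2.05 in Ep300+/- against WT (95% interval -0.062 to 4.17) and by -0.55 between the heterozygotes. Without Crebbp+/- 3 and Ep300+/- 3 the differences from WT were 0.58 and 1.29.

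Cxcl1 1457644_s_at had levels of 8.90, 8.07, 13.71 and 7.59 in Crebbp+/-, 8.60, 10.37, 13.60 and 8.16 in Ep300+/-, and 7.57, 7.84, 9.50 and 7.79 in WT stroma. Cxcl1 1419209_at had levels of 8.18, 7.37, 12.87 and 7.22 in Crebbp+/-, 7.68, 9.62, 13.12 and 7.32 in Ep300+/-, and 6.87, 7.03, 8.53 and 6.73 in WT stroma. On both probe sets replicate 3 was the highest array of each genotype, WT included, and the Crebbp+/- arrays other than number 3 lay among the WT arrays. Cxcl1 differed by 1.39 and 1.62 in Crebbp+/- against WT (limma adjusted p = 0.524 and 0.458) and by 2.00 and 2.14 in Ep300+/- against WT. Without Crebbp+/- 3 and Ep300+/- 3 the differences were 0.013 and 0.30 in Crebbp+/- against WT and 0.86 and 0.92 in Ep300+/- against WT.

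Cxcl14, a chemokine made without induction in many tissues, stands outside these 3 groups of target cells. Cxcl14 1418456_a_at had levels of 8.69, 7.31, 8.46 and 8.87 in Crebbp+/-, 8.38, 7.67, 8.53 and 8.96 in Ep300+/-, and 8.30, 7.86, 7.68 and 7.51 in WT stroma. Cxcl14 1418457_at had levels of 8.80, 7.52, 7.68 and 8.70 in Crebbp+/-, 8.12, 7.30, 8.04 and 7.46 in Ep300+/-, and 8.10, 7.77, 6.37 and 6.67 in WT stroma. The groups overlapped on both, and the differences were 0.50 and 0.94 in Crebbp+/- against WT (limma adjusted p = 0.415 and 0.189) and 0.55 and 0.50 in Ep300+/- against WT.

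**Figure D3:**
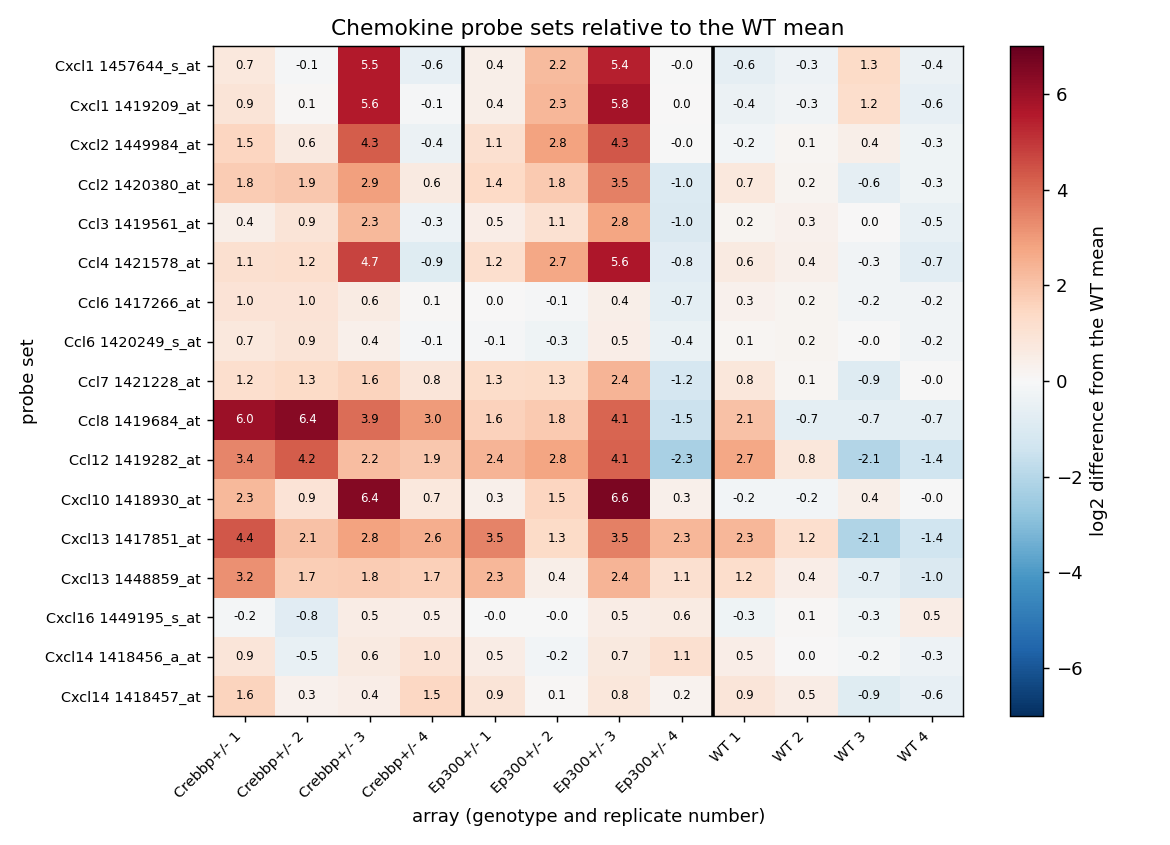
Log2 difference of each array from the WT mean (colour and printed value, log2 units) for the 17 chemokine probe sets (rows) on the 12 arrays (columns), with Crebbp+/- left, Ep300+/- centre and WT right. Crebbp+/- 3 and Ep300+/- 3 carry the highest values of Cxcl1, Cxcl2, Ccl4 and Cxcl10. The highest values of Ccl8 are on Crebbp+/- 2 and 1, followed by Ep300+/- 3 and Crebbp+/- 3.

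The chemokines varied more between arrays of 1 genotype than most probe sets did. Their median SD over 4 arrays was 0.993 in Crebbp+/-, 1.57 in Ep300+/- and 0.618 in WT stroma, beside 0.493, 0.537 and 0.432 for all probe sets. Ep300+/- 3 was the highest of the 12 arrays for 7 of the 17 probe sets, 41.2%, and for 9.33% of all probe sets. Crebbp+/- 2 was the highest array for 4 of the 17, Ccl8, Ccl12 and both Ccl6 probe sets, and for 20.4% of all probe sets. Crebbp+/- 1 was the highest for 3 of the 17, both Cxcl13 probe sets and 1 of Cxcl14, and for 8.3% of all probe sets. On a WT array 0 of the 17 were highest. Of all probe sets, 9.3%, 2.44%, 8.43% and 5.56% were highest on WT 1, 2, 3 and 4. Replicate 3 was highest in all 3 genotypes for 4 probe sets, those of Cxcl1, Cxcl2 and Cxcl10, and for 10.3% of all probe sets. Replicate 4 was lowest in all 3 genotypes for 5 of the 17, among them Ccl3, Ccl4 and Cxcl2, and for 11.9% of all probe sets. Crebbp+/- exceeded WT in 4 of 4 same-numbered pairs for 11 of the 17, and for 31.6% of all probe sets.

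The chemokines fell into patterns across arrays that crossed the groups of target cells, given here as Pearson correlations over 12 arrays that share genotype, replicate number and normalization. Cxcl2 followed Ccl4 at 0.967 and Cxcl1 1419209_at at 0.958, and without Crebbp+/- 3 and Ep300+/- 3 the values over 10 arrays were 0.891 and 0.875. Ccl2 followed Ccl7 at 0.954 over 12 arrays and 0.957 over 10. Ccl8 followed Ccl6 1417266_at at 0.905 and Ccl12 at 0.871, and 0.901 and 0.869 over 10 arrays. Ccl8 and Cxcl1 1419209_at correlated at 0.354 over 12 arrays and 0.135 over 10. Cxcl13 1417851_at followed Cxcl14 1418457_at at 0.883 over 12 arrays and 0.902 over 10, and Cxcl2 at 0.394 and 0.255. Cxcl10 followed Cxcl2 at 0.921 over 12 arrays and 0.709 over 10.

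Among genes that were not members, the 3 closest to Cxcl2 over the 12 arrays were Nfkbiz, an inducible regulator of NF-kB (Pearson 0.990), Tnfaip3, which encodes the NF-kB inhibitor A20 (0.983), and Tnfsf9, a ligand of the tumour necrosis factor family (0.983). Over 10 arrays these were 0.984, 0.941 and 0.939. The closest to Ccl8 were Dtx3l, an interferon-inducible ubiquitin ligase (0.960), Tjp1, a tight junction protein (0.953), and Jag1, a Notch ligand (0.953), and over 10 arrays 0.964, 0.979 and 0.969. Those closest to Ccl2 were Fnip1 (0.950), Car13 (0.939) and Zfp36l1, which promotes mRNA decay (0.926), and over 10 arrays 0.976, 0.908 and 0.878. Those closest to Cxcl13 1417851_at were Rcan1, an inhibitor of calcineurin (0.808), Cks2 (0.794) and Gna13 (0.781). Over 12 arrays these were lower than for the other 3 chemokines. Over 10 arrays they were 0.916, 0.777 and 0.762, so Rcan1 then lay above Car13 and Zfp36l1.

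Of 19 listed inducers and NF-kB feedback genes, 10 were measured, and 0 passed limma's test in any of the 3 comparisons. Tnf, the tumour necrosis factor gene, had levels of 9.80, 8.84, 14.38 and 8.65 in Crebbp+/-, 9.44, 12.29, 14.36 and 9.21 in Ep300+/-, and 7.76, 8.86, 9.03 and 8.21 in WT stroma. Il1b, the interleukin 1 beta gene, had levels of 10.03, 7.20, 13.83 and 5.24 in Crebbp+/-, 6.98, 10.76, 13.94 and 6.18 in Ep300+/-, and 5.84, 5.33, 6.67 and 4.49 in WT stroma. Both were highest on the arrays where Cxcl1, Cxcl2 and Ccl4 were highest, Crebbp+/- 3, Ep300+/- 3 and then Ep300+/- 2. Nfkbia, which encodes the NF-kB inhibitor that NF-kB itself induces, differed by 0.55 in Crebbp+/- against WT and by 1.05 in Ep300+/- against WT. Tnfaip3 differed by 1.69 and 2.17 in those comparisons, and Nfkbiz by 0.99 and 1.65. The median difference of the 10 genes was 0.94 in Crebbp+/- against WT, 1.15 in Ep300+/- against WT and -0.43 between the heterozygotes, and 0.22, 0.61 and -0.38 without Crebbp+/- 3 and Ep300+/- 3.

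Of 12 listed interferon response genes, 8 were measured, and 7 rose in Crebbp+/- against WT stroma, all but Irf1, where 5.02% of all probe sets rose. The genes that rose were Irf7, Stat2, Ifit1, Ifit3, Usp18, Oasl1 and Gbp2. Of the 8, 0 passed without WT 4, Crebbp+/- 1 or Crebbp+/- 2 and 3 without WT 2. Without WT 1, WT 3, Crebbp+/- 3, Ep300+/- 1 or Ep300+/- 2, 4 passed. With the Eif2s3y level as a covariate 0 of the 8 passed, as did 0 of all 3109 probe sets, while the median difference of the 8 was 1.78. Irf7, which amplifies the interferon response, had levels of 11.15, 10.56, 10.83 and 10.10 in Crebbp+/-, 7.81, 8.69, 9.25 and 7.68 in Ep300+/-, and 8.30, 8.38, 8.79 and 8.11 in WT stroma. The Crebbp+/- arrays stood above all others, unlike those of Tnf, and the difference from WT was 2.27 (SE 0.37, limma adjusted p = 0.0128). In Ep300+/- against WT 0 of the 8 passed, and between the heterozygotes 5 were higher in Crebbp+/-, where 4.89% of all probe sets were, but 0 without Crebbp+/- 1 or Ep300+/- 1 and 3 without Crebbp+/- 2 or Ep300+/- 4. The median differences were 1.71, 0.31 and 1.56 in the order Crebbp+/- against WT, Ep300+/- against WT and Crebbp+/- against Ep300+/-, and 1.73, -0.097 and 1.77 without Crebbp+/- 3 and Ep300+/- 3. Irf1, which NF-kB also induces, differed by 1.58 in Crebbp+/- against WT (limma adjusted p = 0.288) and by 1.88 in Ep300+/- against WT, and was highest on Crebbp+/- 3 and Ep300+/- 3. Stat2, which carries the interferon signal, differed by 0.99 in Crebbp+/- against WT (limma adjusted p = 0.0423) and by -0.50 in Ep300+/- against WT.

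**Figure D4:**
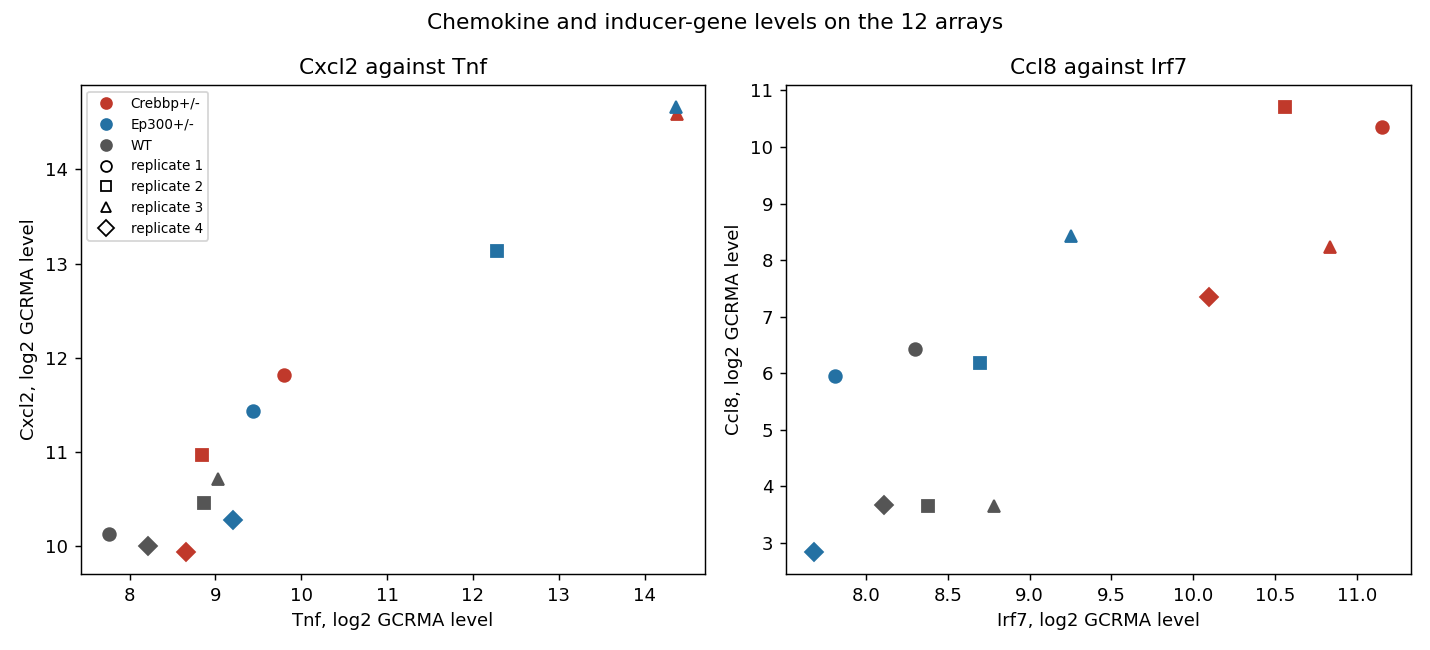
Left, Cxcl2 against Tnf, and right, Ccl8 against Irf7, as log2 GCRMA levels on the 12 arrays, with colour for genotype and symbol for replicate number. On the left Crebbp+/- 3 and Ep300+/- 3 lie together at the top for both genes, with Cxcl2 at 14.58 and 14.66. On the right the 4 Crebbp+/- arrays lie above Irf7 levels of 10 and all other arrays below it.

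Of 23 listed chemokine receptors 3 were measured, Cxcr4, Ackr4 and Ccrl2, and 0 passed limma's test in any comparison. Ccrl2, which binds chemerin without signalling, had levels of 10.81, 9.67, 13.40 and 7.91 in Crebbp+/-, 9.34, 11.09, 13.41 and 9.28 in Ep300+/-, and 7.82, 8.24, 9.18 and 7.26 in WT stroma. It was highest on Crebbp+/- 3 and Ep300+/- 3, as Cxcl1 and Cxcl2 were, and differed by 2.32 in Crebbp+/- against WT (limma adjusted p = 0.191) and 2.65 in Ep300+/- against WT (limma adjusted p = 0.965). Cxcr4, the receptor of Cxcl12, differed by 0.46 in Crebbp+/- against WT and 0.42 in Ep300+/- against WT. Ackr4, a scavenger of chemokines, differed by -0.90 in Crebbp+/- against WT and -0.36 in Ep300+/- against WT. Of 5 other chemokines listed outside the rule, Cxcl12 and Pf4 were measured, and 0 passed in any comparison, with Cxcl12 at 0.25 in Crebbp+/- against WT and -0.25 in Ep300+/- against WT. Pf4, a platelet chemokine, differed by 0.32 and 0.39 in those comparisons.

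Some markers of cell types in the culture moved with genotype beside the chemokines. The summed level of the 3 macrophage markers ranged from 14.46 to 15.03 in Crebbp+/-, 14.06 to 15.07 in Ep300+/- and 13.42 to 13.93 in WT stroma (log2 of the sum). Of these, Cd163 rose in Crebbp+/- against WT (1.18, limma adjusted p = 0.0228, a call that ended when any 1 of WT 2, WT 3, WT 4, Crebbp+/- 1, Crebbp+/- 2 or Crebbp+/- 3 was left out), while the defining genes Adgre1 and Csf1r were not analysed here. Cd14 and Fcgr1 differed by 0.69 and 0.56 in Crebbp+/- against WT (limma adjusted p = 0.528 and 0.113). In Ep300+/- against WT Cd163 differed by 0.84, Cd14 by 1.22 and Fcgr1 by -0.085, and 0 of them passed. The 12 endothelial markers summed to 12.72 to 14.10 in Crebbp+/-, 11.58 to 12.03 in Ep300+/- and 11.96 to 12.55 in WT stroma. Of the 12, 7 rose in Crebbp+/- against WT, where 5.02% of all probe sets rose. All 12 were higher in Crebbp+/- against Ep300+/-, where 4.89% of all probe sets were. Against WT, 0 of the 12 passed without WT 4, Crebbp+/- 1 or Crebbp+/- 2 and 1 without WT 2, WT 3 or Crebbp+/- 3, and against Ep300+/- 0 passed without Crebbp+/- 1 or Ep300+/- 1, 4 without Crebbp+/- 2, 5 without Ep300+/- 4 and 7 without Crebbp+/- 3. With the Eif2s3y level as a covariate 0 passed in either comparison, as did 0 of all 3109 probe sets. Of the 9 reticular markers 0 passed in any comparison, with sums of 14.62 to 15.61, 14.01 to 15.29 and 14.49 to 15.33 in Crebbp+/-, Ep300+/- and WT stroma. The part of cell composition in the chemokine differences was not tested.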

How the data were processed

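Log2 values were deposited by the authors, who had applied GCRMA per the submitters' processing notes, with no version in the sources used here. GCRMA estimates background from the bases of each probe, normalizes the arrays to each other and sums up the probes, so low values are estimates near background. The table held 3127 probe sets, and after leaving out 18 controls 3109 were tested. Of these, 2486 had 1 symbol in the platform annotation, 176 several and 447 none. Gene IDs of all 17 chemokine probe sets matched GRCm38.p6 under the same symbol.

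The deposited values entered limma 3.58.1 (lmFit and eBayes, R 4.3.3) unchanged, in a single model of the 12 arrays with 1 mean for each genotype. Tests were two-sided, adjusted by Benjamini-Hochberg over all probe sets and called at an adjusted p under 0.05. Single probe sets were also compared by exact permutation. The script was tested on simulated data. The members, gene lists and tests were chosen with earlier results of these data known. Every probe set of the rule was described, and from each list the members past the test, or otherwise the 2 of smallest p in at least 1 comparison, and for Ccl2, Ccl8, Cxcl2 and Cxcl13 the 3 genes of highest correlation.

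The 3 genotypes share replicate numbers whose meaning the labels leave out. Same-numbered arrays deviated from their group means with correlations of 0.448 to 0.603 between Crebbp+/- and WT. Between Crebbp+/- and Ep300+/- the correlations were 0.294 to 0.513. The replicate number was left out of the main fit and entered as a block only in an alternative fit. It was not a clear pairing, as number 2 of Crebbp+/- correlated best with number 1 of WT and of Ep300+/-. Alternatives were quantile normalization, median centring, a filter of 4 arrays at 100, eBayes with trend and robust, 2 genotypes only, array weights, the replicate block, 1 value per gene and leaving out each array. Leaving out Crebbp+/- 3 with Ep300+/- 3, and Eif2s3y as a covariate, were added after the values were seen. The number of arrays limits the precision. Promoter windows came from RefSeq.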

Additional observations from a re-analysis of the deposited data

Results flagged for a closer look

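In 51 sets of 4 arrays, 1 per probe set and genotype, 5 held an array whose gap to the others passed Dixon's 95% critical value, where chance gives about 1 in 20. Ccl8 was 6.42 on WT 1, against 3.66 to 3.68 on the other WT arrays. Cxcl1 1457644_s_at was 9.50 on WT 3, against 7.57 to 7.84 on the other WT arrays. Cxcl1 1419209_at was 12.87 on Crebbp+/- 3, against 7.22 to 8.18 in the rest of that genotype, and 8.53 on WT 3, against 6.73 to 7.03 in the rest of WT. Cxcl13 1448859_at was 8.18 on Crebbp+/- 1, against 6.68 to 6.78 in the rest of that genotype. Without WT 1 the Ccl8 difference in Crebbp+/- against WT was 5.50 and kept its call. Why these arrays stood apart was not tested.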

How the results depend on the processing

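Quantile normalization, median centring, the filter of 4 arrays at 100, eBayes with trend and robust and the fit of 2 genotypes left the Ccl8 call in place in Crebbp+/- against WT, and 1 value per gene moved none of the 3 medians by more than the spread between arrays. Of all calls there, 81.2% were higher in Crebbp+/-, and 62.5% under quantile normalization and 63.5% under median centring. The replicate block gave 3 chemokine calls in Crebbp+/- against WT (812 of all probe sets, against 192 without it) and 2 in Crebbp+/- against Ep300+/- (760 against 199, where the fit of 2 genotypes gave 51). Between Ep300+/- and WT the same-numbered arrays correlated at 0.534, 0.345, 0.059 and 0.683 for numbers 1 to 4, so number 3 did not pair. The block gave 0 chemokine calls in that comparison. Array weights gave 10 calls in Crebbp+/- against WT and 4 in Crebbp+/- against Ep300+/- (1267 and 1273 of all probe sets), with weights from 0.331 to 5.27. Leaving out Crebbp+/- 3 with Ep300+/- 3 gave a median difference of 0.67 in Crebbp+/- against WT, and 122 calls of all probe sets in Crebbp+/- against Ep300+/-. The Eif2s3y covariate gave 0 calls and a median of 0.50 in Crebbp+/- against WT. Leaving out 1 array gave 0 to 3 calls in Crebbp+/- against WT, 0 to 0 in Ep300+/- against WT and 0 to 1 in Crebbp+/- against Ep300+/-, with medians of 0.67 to 2.13, 0.73 to 2.22 and -0.16 to 0.70. Of all probe sets it gave 5 to 383, 0 to 1 and 2 to 374 calls in those comparisons, and the Eif2s3y covariate a median of -0.33 in Crebbp+/- against Ep300+/-.

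In Crebbp+/- against WT, Cxcl16 was -0.25 under quantile normalization, -0.19 under median centring, -0.29 under array weights, -0.17 without Crebbp+/- 3 and Ep300+/- 3 and -0.24 with Eif2s3y, and Cxcl1 1457644_s_at was -0.12 with Eif2s3y. In Ep300+/- against WT, Cxcl16 was -0.078 under array weights. In Crebbp+/- against Ep300+/-, array weights gave Ccl7 -0.039 and Cxcl14 1418456_a_at 0.46, Ccl3 was 0.14 without Crebbp+/- 3 and Ep300+/- 3, and Eif2s3y gave Ccl2 -0.016, Cxcl10 -1.07 and Cxcl13 1417851_at -0.65. Leaving out 1 array gave, in Crebbp+/- against Ep300+/-, Ccl12 -0.16 to 1.97, Ccl2 -0.43 to 1.06, Ccl3 -0.64 to 0.63, Ccl4 -1.70 to 0.52, Ccl7 -0.44 to 0.75, Cxcl1 1419209_at -1.85 to 0.70, Cxcl1 1457644_s_at -1.99 to 0.53, Cxcl10 -0.88 to 1.85, Cxcl13 1417851_at -0.19 to 0.58, Cxcl14 1418456_a_at -0.29 to 0.29, Cxcl16 -0.43 to 0.011 and Cxcl2 -1.47 to 0.21. In Crebbp+/- against WT it gave Cxcl16 -0.17 to 0.27, and in Ep300+/- against WT Ccl6 1417266_at -0.24 to 0.11 and Ccl6 1420249_s_at -0.27 to 0.040. The cause was not tested.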
